A study of Mus musculus with 6 samples.

Results

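Genes that mark or act in the mouse epiblast and in embryonic stem cells were followed in day 5 embryos with less Eif4a3. The genes were Upp1, Utf1, Spp1, Dppa2, Dppa4, Dppa5a, Tdh, Fbxo15, Sall4 and Tbx3. They were taken by name, 10 of the 55378 genes in the deposited exon table, and all 10 passed the filter on low counts that left 15619 genes for testing. The samples were mouse embryos that had been injected at the zygote stage with a non-targeting siRNA (labelled NC) or with an siRNA against Eif4a3 and were harvested on day 5. Each group had 3 libraries, each made by Smart-seq2 from polyA RNA of a pool of 5 embryos. The comparison is of 1 siRNA with 1 control siRNA in embryos of a strain that the labels do not give. Nor do they say whether the pools of a group had separate parents, so every p-value measures only the spread between these libraries. Eif4a3 encodes the RNA helicase that anchors the exon junction complex, a set of proteins left on mRNA upstream of each spliced junction.

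The epiblast is the pluripotent lineage of the blastocyst, which gives rise to the fetus, beside the trophectoderm and the primitive endoderm. Its identity rests on transcription factors such as OCT4 (encoded by Pou5f1), NANOG and SOX2, and the genes followed here lie around that core. Utf1, Dppa2, Dppa4 and Sall4 encode chromatin-bound proteins, Tbx3 a T-box transcription factor, Dppa5a an RNA-binding KH-domain protein, Fbxo15 a subunit of a ubiquitin ligase, Upp1 and Tdh metabolic enzymes, and Spp1 a secreted matrix protein.

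The siRNA target was lower in every knockdown library. Eif4a3 measured 302, 255 and 201.98 CPM (counts scaled to the effective library size) in NC replicates 1 to 3 and 16.03, 36.2 and 56.2 CPM in knockdown replicates 1 to 3. Its log2 fold change was −2.81 (standard error 0.44, adjusted p 0.00513 by edgeR). The size depends on the part of the transcript. Exon blocks 1 to 8 from the 5′ end were at 3.77% to 4.49% of NC and blocks 9, 10 and 11 at 25.5%, 33.8% and 41.6%. Its most counted block taken alone gave a log2 fold change of −1.52 (adjusted p 0.0403 by edgeR). Library totals, as sums over exon blocks, ran from 15607226 to 18697761. Of the marker lists of the lineages, epiblast and inner cell mass markers (12 of 12 tested) summed to 824 to 1004 CPM in NC and 427 to 542 CPM in the knockdown, trophectoderm markers (11 of 12 tested) to 4698 to 8465 and 1623 to 3831 CPM, and primitive endoderm markers (9 of 12 tested, Foxa2 at 0) to 709 to 860.1 and 325 to 366 CPM. Some markers of each list were therefore detected in both groups. The summed level of each list did not overlap between the groups, being lower in the knockdown. Most of the primitive endoderm sum with the siRNA was Dab2 (mean 251.2 CPM) and Gata6 (58.3 CPM). In that list Pdgfra fell from a mean of 11.2 to 0.499 CPM, and Sox17, which was not tested, averaged 2.02 and 0.134 CPM. The sum therefore does not show whether primitive endoderm cells were present with the siRNA. Markers of cumulus cells summed to 3.58 to 15.5 CPM in NC and 16.2 to 28.8 CPM in the knockdown, with 6 of 10 at 0 in all libraries. Nearly all of that sum was Amhr2 (3.58, 15.4 and 11.5 CPM in NC against 28.8, 16.1 and 22.9 CPM), the 1 tested marker of the list, which did not pass the test (adjusted p 0.152 by edgeR). Markers of sperm stayed at or under 3.37 CPM. Those of fibroblasts (1.99 to 12.7 against 1.02 to 10.7 CPM) and blood (45.2 to 113 against 61.4 to 109 CPM) overlapped between the groups. In the blood list 2 of 5 tested markers fell, the globin genes Hbb-bs (means 5.50 and 0.369 CPM, adjusted p 0.0132 by edgeR) and Hbb-bt (2.78 and 0.2504 CPM, 0.0239), and the list median was −2.19. Most of the blood sum was Cd68, with means of 52.7 and 85.05 CPM, which did not pass. These are pooled whole embryos, so fewer cells of a type and less RNA per cell cannot be told apart. A difference in developmental stage between the groups cannot be told apart from these either.

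Upp1, Utf1 and Spp1 fell in the knockdown, and the other 7 genes did not pass the test. In NC, Upp1 averaged 252 CPM, Utf1 40.1 CPM and Spp1 567 CPM, against 37.3, 7.17 and 31.7 CPM in the knockdown. So 3 of 10 genes were lower at an adjusted p under 0.05 by edgeR, where 5.56% of all tested genes were, and 0 of 10 were higher, where 7.52% of all tested genes were. The median log2 fold change of the 10 genes was −0.64, beside 0.03 over all tested genes and −0.60 over the 16 genes of the core pluripotency list. The groups did not overlap for 4 of the 10 genes, Upp1, Utf1, Spp1 and Sall4, all lower in the knockdown, where 36.4% of all tested genes did not overlap and 16.3% were lower without overlap. None of the 10 was higher without overlap, where 20.1% of all tested genes were. The 10 genes were chosen with earlier results of these data known, so these shares are a description and do not test for an excess.

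**Figure D1:**
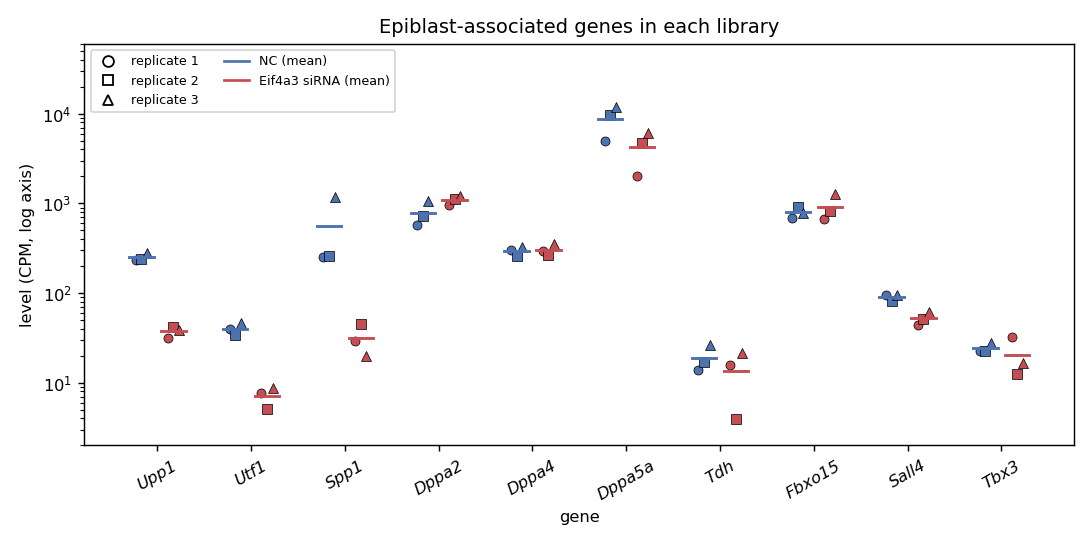
Level of each gene in each library (CPM, log axis), with NC in blue, the Eif4a3 siRNA in red, a symbol per replicate and a bar at the group mean. The knockdown libraries lie below all NC libraries for Upp1, Utf1, Spp1 and Sall4, and the groups overlap for the other genes.

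The stretches upstream of the 3 genes that fell are shown here. They are from the RefSeq promoter table (GRCm38.p6), which holds 300-base windows, 250 bases before to 50 bases after a start. Windows were matched for only 3 of the 10 genes, which are these same 3. No gene that did not pass the test could therefore be set beside them. The bases before the RefSeq start are given, 5′ to 3′ on the plus strand. For Utf1 they end where its first annotated exon begins. They lie at chr11:9117758-9118007 (Upp1), chr7:139943606-139943788 (Utf1) and chr5:104434861-104435110 (Spp1). Capitals mark matches to motifs searched on both strands.
Upp1: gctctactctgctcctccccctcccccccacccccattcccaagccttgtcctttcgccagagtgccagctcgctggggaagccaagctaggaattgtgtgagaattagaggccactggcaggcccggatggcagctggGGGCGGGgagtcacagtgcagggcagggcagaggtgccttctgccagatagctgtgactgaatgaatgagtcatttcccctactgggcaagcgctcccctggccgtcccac
Utf1: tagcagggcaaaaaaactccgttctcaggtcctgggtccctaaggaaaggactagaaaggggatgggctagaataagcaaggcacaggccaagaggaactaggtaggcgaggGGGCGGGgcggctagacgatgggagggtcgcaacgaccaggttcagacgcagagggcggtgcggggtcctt
Spp1: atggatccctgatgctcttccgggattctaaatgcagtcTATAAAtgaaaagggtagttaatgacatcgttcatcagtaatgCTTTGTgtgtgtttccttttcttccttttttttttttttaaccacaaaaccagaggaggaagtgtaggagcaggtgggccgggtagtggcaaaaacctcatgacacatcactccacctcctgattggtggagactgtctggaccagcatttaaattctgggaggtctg
The capitals in the Upp1 and Utf1 stretches are the motif GGGCGGG, of the kind bound by SP and KLF factors, at positions −111 and −138 from the start. It is present in 25.6% of the 32851 windows. The capitals in the Spp1 stretch are TATAAA, at position −211 from the start and present in 13.6% of windows, and CTTTGT, at position −168. The latter is the SOX-type motif ACAAAG on the opposite strand, present in 18.7% of windows. Another SOX-type motif, ACAATG, is in 12.6% of all windows and had no match here. Neither had the E-box CACGTG (in 7.15% of windows), the KLF-type motif GGGTGTGG (in 3.56%) or the ESRRB-type motif TCAAGGTCA (in 0.423%). A second Spp1 start in the same table has, upstream of it, a match to the octamer ATGCAAAT, bound by POU factors such as OCT4.
Spp1 octamer: aaatcacATTTGAAATGCAAATggaaaaag
This stretch spans chr5:104435968-104435997 on the plus strand, in the first intron of the annotated gene. The octamer is the last 8 of the 15 capital letters, and 1.74% of windows in the table hold it. The other capitals are the 7 bases before the octamer, which make up with it the palindromic POU-factor element described for the first intron of Spp1. The longer element was read from this Spp1 window after the octamer was seen, and 2 of the 32851 windows held it (0.00609%). This Spp1 window is 1 of the 2 by construction, so the share does not measure how unusual the match is. These matches describe letters only.

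Upp1 encodes uridine phosphorylase 1, which splits uridine into uracil and ribose 1-phosphate and is a commonly used marker of naive stem cells and of the preimplantation epiblast. It measured 233, 243 and 280.3 CPM in NC and 31.8, 41.6 and 38.6 CPM in the knockdown. The spread within each group was narrow and every knockdown library was far below every NC library. The knockdown mean was 14.8% of the NC mean (252 ± 25.1 against 37.3 ± 5.03 CPM, SD, n = 3), with a log2 fold change of −2.75 (95% interval −3.37 to −2.14, adjusted p 0.000954 by edgeR). The gene lies on chromosome 11, 9118103 to 9136170, plus strand, in GRCm38. The fall ran along the whole transcript. Merged overlapping exons formed 9 exon blocks with at least 1 CPM in NC, and in each of them the knockdown libraries were lower without overlap, at 13.04% to 16.7% of NC.

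Among 15 tested genes of pyrimidine nucleoside salvage and breakdown, of 18 listed, 1 rose and 2 fell, Upp1 being one of those that fell. The gene that rose was Tymp, which encodes thymidine phosphorylase, an enzyme that splits thymidine as uridine phosphorylase splits uridine. Tymp rose from an average of 11.05 CPM to 38.8 CPM (log2 fold change 1.81, adjusted p 0.00897 by edgeR). The other gene that fell was Cad, the multifunctional enzyme that opens de novo pyrimidine synthesis, with a log2 fold change of −1.17 (adjusted p 0.0436 by edgeR). That call was lost on leaving out any 1 of the 6 libraries, with adjusted p between 0.0536 and 0.161. The median of the list was 0.11 on the log2 scale, against 0.03 for all tested genes.

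Tdh encodes the mitochondrial threonine dehydrogenase, which feeds glycine and acetyl-CoA to mouse embryonic stem cells. It measured 13.97, 16.9 and 26.3 CPM in NC and 15.8, 3.94 and 21.3 CPM in the knockdown. It is encoded on the minus strand of chromosome 14, from 63492347 to 63509092, and an antisense gene, Gm17232, covers 2.52% of its exonic bases. Knockdown replicate 2 stood low and the other knockdown libraries lay within the NC range. The difference did not pass the test (log2 fold change −0.48, 95% interval −1.68 to 0.72, adjusted p 0.595 by edgeR). At this spread, the interval holds both a fall and a rise. In threonine and glycine catabolism, 0 of 11 tested genes rose and 3 fell, with a list median of −0.48. Those that fell were Gldc, the decarboxylase of the glycine cleavage system (−1.38, adjusted p 0.0328), Shmt2, mitochondrial serine hydroxymethyltransferase (−1.95, 0.0364), and Mthfd1, a cytosolic folate enzyme (−2.09, 0.00688), all by edgeR. Mthfd1 kept its call on leaving out each library in turn. Gldc kept it without NC replicate 3 and without knockdown replicate 1 but in no other such fit (adjusted p up to 0.1103), and Shmt2 only without knockdown replicate 1 (up to 0.13).

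Utf1 encodes a chromatin-bound factor that limits Polycomb loading at bivalent genes in embryonic stem cells. It measured 39.4, 34.5 and 46.3 CPM in NC and 7.64, 5.09 and 8.79 CPM in the knockdown. The highest knockdown library was far below the lowest NC library. The knockdown mean was 17.9% of the NC mean, with a log2 fold change of −2.48 (standard error 0.34, 95% interval −3.24 to −1.72, adjusted p 0.00362 by edgeR). The gene is short (chromosome 7, 139943789 to 139945112, plus strand), and its 2 exon blocks were at 18.4% and 17.4% of NC. Of 13 tested genes of the Polycomb and bivalent chromatin list, 0 rose and 1 fell, and that 1 was Utf1 itself.

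Spp1 encodes osteopontin, a secreted, integrin-binding phosphoprotein. It measured 252, 259.9 and 1189 CPM in NC and 29.6, 45.4 and 20.04 CPM in the knockdown. NC replicate 3 stood far above the other NC libraries, and all knockdown libraries lay below all NC libraries. The log2 fold change was −4.16 (standard error 0.66, 95% interval −5.63 to −2.70, adjusted p 0.00535 by edgeR), and the knockdown mean was 17.9-fold lower. Without NC replicate 3 it was −3.03, with an adjusted p of 0.0102 by edgeR. The gene lies on chromosome 5, 104435118 to 104441050, plus strand. Its 7 exon blocks with at least 1 CPM in NC were at 5.31% to 6.08% of NC, each without overlap. These percentages rest in large part on NC replicate 3, the highest library in each of these blocks. A predicted gene on the same strand, Gm42793, covers 18.8% of its exonic bases, and reads there cannot be assigned to one of them.

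Of the osteopontin family and its receptors, 5 of 14 listed genes were tested. In that list 0 rose and 2 fell, Spp1 and Itga5. Itga5 encodes the integrin alpha 5 chain, which pairs with beta 1 to bind fibronectin. Its log2 fold change was −2.12 (adjusted p 0.0483 by edgeR), and the call held in 1 of the 6 fits that left out a library, the one without knockdown replicate 1, with adjusted p up to 0.126 in the others. The bone matrix relatives of Spp1, Dmp1, Dspp, Ibsp and Mepe, had 0 counts in all 6 libraries.

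Dppa2 and Dppa4 are neighbouring genes on the plus strand of chromosome 16 (48303908 to 48319723 and 48283733 to 48294237) whose SAP-domain proteins bind chromatin as a pair and have been reported as activators of the Dux and Zscan4 program of 2-cell embryos. Dppa2 measured 575, 720.3 and 1053 CPM in NC and 969, 1113 and 1225 CPM in the knockdown. The lowest knockdown library was below NC replicate 3 and above the other NC libraries. The difference did not pass the test (log2 fold change 0.49, 95% interval −0.21 to 1.20, adjusted p 0.325 by edgeR). Its 7 exon blocks with at least 1 CPM in NC ran from 121% to 152% of NC. Of these blocks, 3 were higher in the knockdown without overlap, and the test of block usage called 0. Dppa4 measured 303, 262 and 325 CPM in NC and 292, 267 and 357 CPM in the knockdown, and the groups overlapped over most of their range. Its log2 fold change was 0.04 (95% interval −0.56 to 0.64, adjusted p 0.937 by edgeR).

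Genes reported as DPPA2 and DPPA4 targets in stem cells went the other way from Upp1, Utf1 and Spp1. Of 10 listed, 8 were tested, 7 rose and 0 fell. Zscan4c, Zscan4d, Zscan4f, Zfp352 and Tdpoz3 had 2, 2, 4, 1 and 1 counts summed over the NC libraries. They passed the filter only through the knockdown libraries, where they are high, so a rise was the only outcome open to them. The count is therefore a description and is not to be compared with the 7.52% of all tested genes that rose. Zscan4c, which marks the 2-cell state, went from a mean of 0.0385 CPM to 64.8 CPM (9.37, 57.97 and 127 CPM in knockdown replicates 1 to 3). Syce1, a synaptonemal complex gene, averaged 8.17 and 47.1 CPM (log2 fold change 2.53, adjusted p 0.00679 by edgeR). Tex101, a germ cell surface protein gene, averaged 1.601 and 22.5 CPM (log2 fold change 3.82, adjusted p 0.00581 by edgeR). The levels of Dppa2 and Dppa4 themselves overlapped between the groups, as given above. Of a list of 5 Dppa genes (Dppa1, Dppa2, Dppa3, Dppa4 and Dppa5a), 0 passed the test in either direction. Dppa1 and Dppa3 overlapped between the groups as well, Dppa1 at −0.43 and Dppa3 at 0.58 on the log2 scale.

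**Figure D2:**
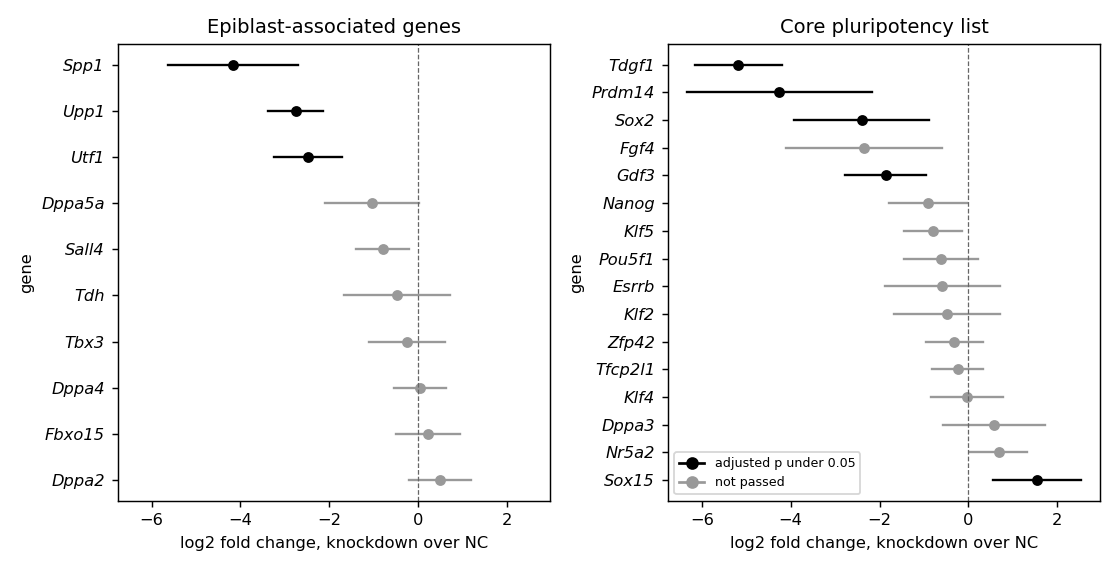
Log2 fold change of knockdown over NC by edgeR with its 95% interval for the 10 epiblast-associated genes (left) and the 16 genes of the core pluripotency list (right), in black where the adjusted p was under 0.05. Spp1, Upp1 and Utf1 are the genes past the threshold on the left, and the intervals of Dppa2, Dppa4, Fbxo15, Tbx3 and Tdh cross 0, as does that of Dppa5a.

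Within Dppa4, 1 short exon was lower although the gene as a whole was level. The exon is shown because it carries this difference. It is the fourth of 7 exon blocks, lies at chr16:48289328-48289378 on the plus strand of GRCm38, and has 51 bases.
Dppa4 exon: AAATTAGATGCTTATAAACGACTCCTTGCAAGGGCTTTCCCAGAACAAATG
All letters are coding bases of the annotated transcript that holds this exon, and they are printed from the GENCODE vM21 transcript sequence. The block had 170, 113 and 154 counts in NC and 41, 43 and 40 counts in the knockdown. As CPM these are 8.45, 7.50 and 10.1 in NC and 1.92, 2.60 and 2.41 in the knockdown, with the highest knockdown library well below the lowest NC library. The other 6 blocks were at 99.0% to 113% of NC and overlapped between the groups.

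Set against the mean of the blocks on either side of it, the short exon was at 15.9%, 17.1% and 18.2% in NC and at 3.81%, 5.87% and 4.06% in the knockdown. That is 17.1 ± 1.17% against 4.58 ± 1.12% (SD, n = 3), 3.73-fold lower, with an exact two-sided permutation p of 0.1, the smallest that 3 against 3 can give. The exon was picked for its difference in these same counts, so this permutation result largely restates that choice. In the edgeR test of block usage, which compares each block with the rest of its gene, the log2 change was −1.35 and the adjusted p 0.0200. Over all genes 67890 blocks were tested and 0.0442% were called lower, and 0.906% of the 9494 genes with several blocks were called by the Simes method. Dppa4 was the 1 of 10 genes called (Simes adjusted p 0.0233), and on leaving out each library in turn this call for the gene was lost in all 6 fits. The exon was lower in every knockdown library, but the call held in only 1 of the 6 fits that left out a library, the one without knockdown replicate 1 (adjusted p 0.0400). In the other 5 fits it was 0.0669 to 0.218, at log2 changes between −1.48 and −1.28 over all 6. At 40 to 170 counts per library the depth behind this exon is small.

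The annotation (GENCODE vM21) gives 2 coding transcripts of Dppa4 that differ here. The longer has 7 exons and 296 codons and holds the short exon. The shorter has 6 exons and 244 codons, lacks the short exon and ends exon 3 earlier, at 62 instead of 167 bases. The difference is 156 bases or 52 codons, of which the short exon gives 17 codons, so the reading frame is the same on either side. The short exon had fewer counts than either neighbour in every library. A longer exon is overlapped by more read pairs than a 51-base exon, so this share is not the share of transcripts that hold it. The deposited counts hold no junction reads, and the use of the earlier end of exon 3 was not tested.

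**Figure D3:**
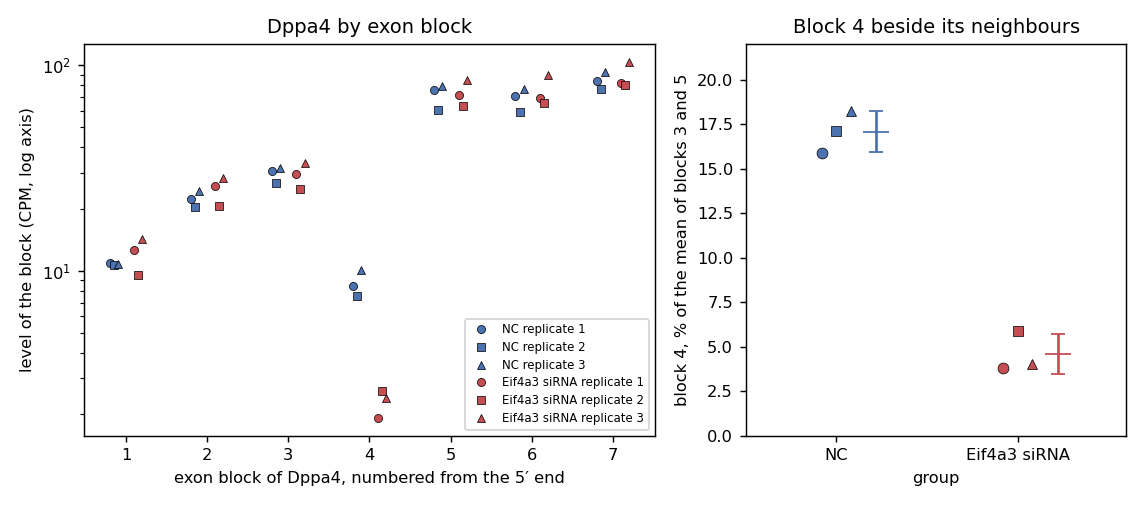
Left, level of each Dppa4 exon block from the 5′ end in each library (CPM, log axis). Right, the fourth block as a percentage of the mean of blocks 3 and 5, with the group mean and SD (n = 3). The fourth block is the only 1 of the 7 in which the groups separate, at 15.9% to 18.2% in NC and 3.81% to 5.87% in the knockdown.

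Sall4 encodes a zinc-finger repressor that recruits the NuRD complex. It measured 96.4, 82.7 and 94.7 CPM in NC and 44.4, 50.9 and 62.1 CPM in the knockdown. The groups did not overlap, and the knockdown mean was 57.5% of the NC mean. The log2 fold change was −0.80 (95% interval −1.39 to −0.20), and the adjusted p of 0.0764 by edgeR missed the threshold. DESeq2, run as an alternative, gave an adjusted p of 0.0351. Its last exon block held most of the signal, with means of 86.3 CPM in the control and 51.0 CPM with the siRNA, without overlap. It is encoded on the minus strand of chromosome 2, from 168748332 to 168767943. An antisense gene, Gm14261, covers 9.50% of the exonic bases of Sall4, where reads of either cannot be told apart.

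Of the 2 tested Sall family genes none passed the test. Sall1 was at −1.15 on the log2 scale (adjusted p 0.0947 by edgeR). Of the 11 NuRD genes, 0 rose and 1 fell. That was Chd4, the ATPase of the complex, at −1.26 (adjusted p 0.0294 by edgeR), and its call held only without knockdown replicate 1 among the 6 fits that left out a library. The median of the NuRD list was −0.98, against 0.03 for all tested genes.

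Tbx3 encodes a T-box factor that supports naive pluripotency and also acts in extraembryonic endoderm. It measured 22.8, 22.7 and 27.95 CPM in NC and 32.4, 12.5 and 16.8 CPM in the knockdown, where replicate 1 lay above and the others below every NC library. The log2 fold change was −0.25 (95% interval −1.11 to 0.61, adjusted p 0.707 by edgeR). The gene lies on chromosome 5, 119670669 to 119684724, plus strand, and the antisense Tbx3os1 covers 1.74% of its exonic bases. Its first exon block averaged 10.7 CPM in NC and 5.20 CPM with the siRNA, without overlap, while the last 2 blocks were at 161% and 134% of NC with overlap. The test of block usage called none of its blocks. Of the 7 tested T-box genes, of 16 listed, 0 rose and 1 fell. It was Eomes, a trophectoderm regulator, at −2.77 (adjusted p 0.00629 by edgeR).

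Dppa5a, a KH-domain RNA-binding protein gene, was the most abundant of the 10. It measured 4949, 9619 and 11932 CPM in NC and 2018, 4727 and 6123 CPM in the knockdown. NC replicate 1 lay within the knockdown range, and replicate 1 was the lowest library of both groups. The knockdown mean was 48.6% of the NC mean (log2 fold change −1.04, 95% interval −2.10 to 0.01, adjusted p 0.171 by edgeR). It is encoded on the minus strand of chromosome 9, from 78367052 to 78368177. Its 3 exon blocks gave nearly the same value, 48.2% to 48.8% of NC. The near-identical genes Dppa5b and Dppa5c were counted at 222 and 223 CPM in the control and at 128 and 129 CPM with the siRNA, neither past the test (adjusted p 0.192 each by edgeR), and how reads were split among the 3 copies is uncertain. With the replicate number as a block, Dppa5a was lower at an adjusted p of 0.00756 by edgeR. Whether the numbers pair the libraries is not settled.

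Among the 6 genes of the KH-domain oocyte cluster to which Dppa5a belongs, 0 rose and 1 fell. Ooep, a subunit of the subcortical maternal complex, was at −1.80 (adjusted p 0.0296 by edgeR). It lost its call without NC replicate 2, NC replicate 3 or knockdown replicate 2, with adjusted p up to 0.0822.

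Fbxo15 encodes the F-box subunit of an SCF ubiquitin ligase and is a classic reporter locus of OCT4 and SOX2 activity. It measured 687, 913 and 784 CPM in NC and 664, 826 and 1274 CPM in the knockdown. Knockdown replicate 3 lay above the NC range and knockdown replicate 1 just below it. The log2 fold change was 0.21 (95% interval −0.51 to 0.93, adjusted p 0.703 by edgeR). Of the 6 tested genes of the SCF core list, Fbxo15 included, 0 passed the test in either direction. Its 10 exon blocks with at least 1 CPM ran from 90.2% to 147% of NC, and the third block from the 5′ end was higher in the knockdown without overlap.

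Per kilobase of exonic length in NC, the order of levels was Dppa5a (14270.4 ± 5747 CPM per kb), Spp1 (345 ± 328), Dppa2 (319.9 ± 100.3), Fbxo15 (237 ± 33.8), Dppa4 (179 ± 19.2), Upp1 (128 ± 12.8), Utf1 (32.6 ± 4.86), Sall4 (16.5 ± 1.35), Tdh (7.29 ± 2.47) and Tbx3 (3.696 ± 0.454). The place of Spp1 rests on NC replicate 3 (723, against 153 and 157.99 CPM per kb in the other NC libraries). Without that replicate its mean was 156 CPM per kb, below Dppa2 (265), Fbxo15 (238) and Dppa4 (169.97). Spp1 therefore could not be ordered against Dppa2, Fbxo15 or Dppa4 by its mean, and Dppa2 and Fbxo15 differed by less than the spread of Dppa2. In the knockdown Dppa5a still led (6929 CPM per kb), followed by Dppa2 (450.5), Fbxo15 (274) and Dppa4 (184). Spp1 (19.3) and Upp1 (19.03) then came next to each other, above Sall4 (9.48), Utf1 (5.84), Tdh (5.23) and Tbx3 (3.11). Libraries of a group differed across these genes. In NC, replicate 3 was the highest for 8 of the 10 genes and the lowest for 0. In the knockdown, replicate 3 was the highest for 7, and replicate 1 the lowest for 5.

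The factors that define the epiblast were used as yardsticks, since they share a lineage with these genes. Pou5f1 averaged 99.9 CPM in the control and 65.1 CPM with the siRNA (log2 fold change −0.62, adjusted p 0.293 by edgeR) and Nanog 140.1 and 74.5 CPM (−0.91, 0.155). Relative to Pou5f1 in the same library, the mean log2 ratio of Upp1 was 1.43 in NC and −0.77 in the knockdown, a difference of −2.20. The difference was −1.95 for Utf1 and −3.28 for Spp1. Relative to Nanog they were −1.99, −1.74 and −3.07. In all 6 of these ratios the knockdown libraries were lower without overlap. Each had an exact two-sided permutation p of 0.1, the smallest possible, or 0.25 after Benjamini-Hochberg adjustment over 30 ratios. Upp1, Utf1 and Spp1 were taken because they fell, and by more than Pou5f1 or Nanog. Their lower ratios largely restate that choice and are a description. The share of all tested genes with such ratios was not computed.

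Sox2 gave other values. It fell itself, from 2.95 to 0.557 CPM (log2 fold change −2.40, adjusted p 0.0449 by edgeR), and held that call only without knockdown replicate 2 among the 6 fits that left out a library. Relative to Sox2, the differences were −0.08 for Upp1, 0.17 for Utf1 and −1.15 for Spp1, each with overlapping groups. With Sox2 near 1 CPM or under in the knockdown, these ratios are imprecise. Dppa2, Dppa4, Fbxo15, Sall4 and Tbx3 were higher relative to Sox2 without overlap. Dppa2 was so relative to Nanog too (difference 1.301, exact two-sided permutation p 0.1). Since Sox2 fell and none of these genes fell as far, a higher ratio to it is not a rise of the gene. Sall4 was itself lower in the knockdown (log2 fold change −0.80). The share of all tested genes that were higher relative to Sox2 was not computed. Of the 16 genes of the core pluripotency list, 1 rose and 4 fell. Sox15 rose (1.54, adjusted p 0.0461 by edgeR), a call that held only without NC replicate 2 and without knockdown replicate 1 among the 6 such fits (adjusted p up to 0.142). Tdgf1, the Nodal coreceptor, fell most (−5.18, adjusted p 0.000752 by edgeR), with Prdm14, Gdf3 and Sox2. Gdf3 missed the threshold when NC replicate 2, NC replicate 3 or knockdown replicate 2 was left out (up to 0.0653), and Prdm14 without replicate 3 of either group (up to 0.064).

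**Figure D4:**
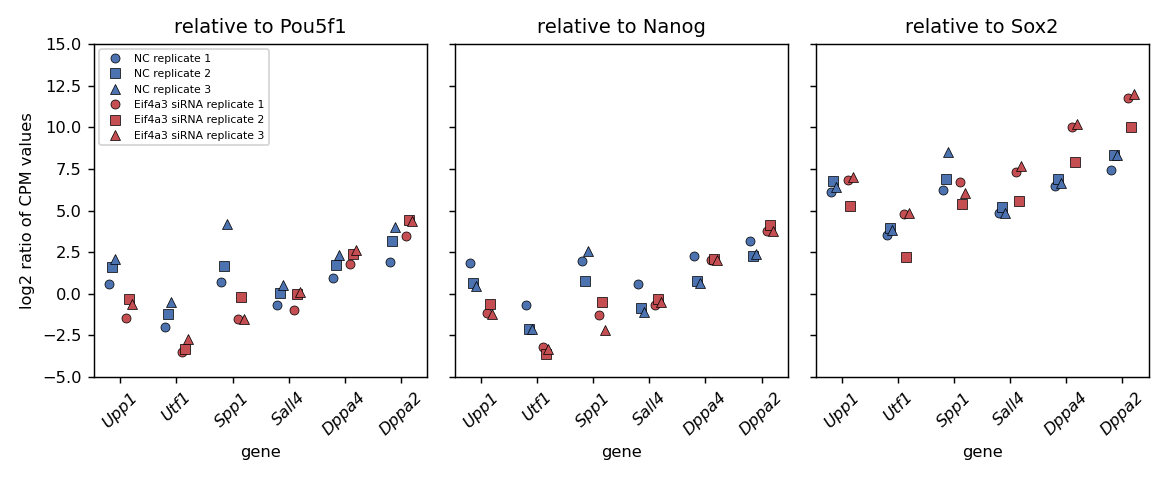
Log2 ratio of CPM values of 6 of the genes to Pou5f1, Nanog and Sox2 in the same library, NC in blue and Eif4a3 siRNA in red. Relative to Pou5f1 and Nanog the knockdown libraries of Upp1, Utf1 and Spp1 lie below all NC libraries, and relative to Sox2 they overlap.

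The 3 genes that fell did so while markers of the other lineages were lower too, 6 of 11 tested trophectoderm markers and 4 of 9 tested primitive endoderm markers having fallen, and 4 of 12 epiblast markers. The part of lineage makeup in the fall of Upp1, Utf1 and Spp1 was not tested. The profiles nearest to theirs over the 6 libraries, by Euclidean distance between log2 values centred on the NC mean among 6750 genes, were these. Nearest to Upp1 were Tcl1 (distance 0.46), Tmem106a (0.74) and Gjb5 (0.81). Nearest to Utf1 were Gjb5 (0.30), Tcl1 (0.74) and Ptges (0.76). Tcl1, a coactivator of AKT kinase, fell from 23.7 to 3.73 CPM, and Gjb5, a connexin gene of trophoblast, from 79.0 to 14.1 CPM. Spp1 had no profile as near, but its outlying NC replicate 3 (1189 CPM, against 252 and 259.9 CPM in NC replicates 1 and 2) enters every distance. The distances without that library were not computed. The genes nearest to Spp1 were Fn1 (1.52), Sparc (1.87) and Tubb5 (1.99).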

How the data were processed

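The deposited table holds raw counts of read pairs per annotated exon line in 6 libraries. Per the submitters' processing notes, the tools were FastQC 0.11.9, fastp 0.20.1, STAR 2.7.6a, featureCounts 2.0.1, R 4.1.1 and DESeq2 1.34.0 on GRCm38 (mm10). Per the file headers, the authors counted pairs with featureCounts on GENCODE vM29 in GRCm38 coordinates, letting a pair count in every exon line that it overlapped, at a strand setting of reverse. Smart-seq2 does not mark the strand, so pairs of the other orientation are missing, and antisense partners cannot be told apart. Of 842173 lines, 449500 were distinct. Each gene's overlapping exons were joined, which gave 291424 blocks, each block took the line with the most counts, and blocks were added up per gene. Junction-spanning pairs count in more than 1 block. Symbols were found for 55102 of 55378 genes. The test planned for gene counts was run on these sums.

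Groups were compared with edgeR 4.0.16 (filterByExpr, TMM, glmQLFit, glmQLFTest, two-sided) in R 4.3.3, with Benjamini-Hochberg adjustment over 15619 genes and a threshold of 0.05. Standard errors are the log2 fold change over the square root of F. Block usage was tested with diffSpliceDGE over all blocks of tested genes, and single values with exact two-sided permutation tests. The edgeR gene test and the block usage test were tried on simulated data first, and the permutation tests were not. Alternatives were RLE and upper quartile scaling, DESeq2 1.42.0, other filters (none, or a mean of 5 CPM), other gene sums, a replicate block and leaving out each library. All 10 genes, Eif4a3 and the genes of fixed lists that passed the threshold could be named, and for likeness the 3 nearest genes of at least 10 CPM per gene (pseudocount 0.5). The members and lists were chosen with earlier results of these data known. Skp1 was not matched to a symbol. Sequences are from the RefSeq table of GRCm38.p6 and GENCODE vM21 transcripts.

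Same-numbered libraries correlated, after group means were removed, at 0.33, 0.0016 and 0.12 across genes. The first value was the highest of any NC and knockdown pair, but NC replicate 2 correlated best with knockdown replicate 3 (0.24). These values do not settle whether the numbers pair the libraries, so the main test did not pair them.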

Additional observations from a re-analysis of the deposited data

How the results depend on the processing

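Upp1, Utf1 and Spp1 kept their direction and their call in 14 of 14 alternatives each, with log2 fold changes of −2.84 to −2.64, −2.66 to −2.28 and −4.55 to −3.03. Members lower in the knockdown numbered 3 in the main analysis and 4 with DESeq2 (Sall4 added), with no filter on low counts and with the replicate block (Dppa5a added in both, adjusted p 0.0381 and 0.00756 by edgeR). Without NC replicate 2 Dppa4 turned to −0.09 and without knockdown replicate 3 to −0.10, Fbxo15 turned to −0.10 without knockdown replicate 3, and Tbx3 to 0.0074 without knockdown replicate 2, none past the threshold. On leaving out each library these 3 genes ranged from −0.10 to 0.13 (Dppa4), −0.10 to 0.37 (Fbxo15) and −0.78 to 0.0074 (Tbx3). Of the fits for single named genes under all alternatives, 499 kept their side of the threshold and direction, 57 lost the call, 5 gained one and 4 turned.

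Over all genes, 1174 were higher and 869 lower. DESeq2 gave 1829 and 1490, and no filter on low counts 2089 and 1518. Leaving out each library gave 550 to 1223 higher and 336 to 1131 lower. Genes with unequal block usage numbered 86, and 20 to 99 on leaving out each library, with 0 of the 10 members called at the gene level in any of these fits. The replicate block, under which same-numbered libraries are treated as pairs, gave 1332 genes higher, 1198 lower and 132 with unequal block usage. It moved Sox2 to an adjusted p of 0.0523 and the short exon of Dppa4 to 0.00287 by edgeR. NC replicate 2 correlated best with knockdown replicate 3 (0.24). Upper quartile scaling moved the median log2 fold change of all genes from 0.03 to 0.10. Counts of 40 to 170 per library limit the Dppa4 exon, and 2.95 CPM or less limits Sox2.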
